A study of Mus musculus with 4 samples.

Results

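Olfr558 and Olfr78 are 2 genes of the mouse olfactory receptor family, out of 1135 genes with an Olfr symbol and 32286 genes measured in all. They were chosen by their symbols because Olfr558 had been seen to lead a cluster of pericytes in these same data, so their levels between cell types are given as a description, with no test. The data are single-cell RNA libraries made with a 3′ kit from popliteal vessels of adult mice of the WT1GFPCre line, which has an EGFP and Cre knock-in at Wt1, crossed with the Ai9-tdT reporter line. All libraries share this genotype and an injection of Evans blue dye into the footpad under anaesthesia. The promoter of Wt1 drives the Cre, so the reporter marks cells with a history of Wt1 expression; it was not used here. PLV replicates 1 and 2 hold popliteal lymphatic vessels, each from a pool of 2 mice, digested for 30 minutes with collagenase I, Dispase II, DNase and Liberase. The mixed library holds popliteal lymphatic vessels and blood vessels (BV) from 1 pool of 2 mice, digested for 60 minutes with collagenase I and Dispase II alone. Cells of its vessels were not told apart here, and vessel, digestion, pool and library run differ together between it and the PLV libraries.

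Olfactory receptors are G protein-coupled receptors. In the nose they act through the G protein alpha subunit Gnal, the adenylyl cyclase Adcy3 and a cyclic nucleotide-gated channel. Olfr558 and Olfr78 are among the few that are also known outside the nose: Olfr78 responds to short-chain fatty acids and lactate, Olfr558 to short and branched carboxylic acids, and both have been described in vascular muscle. Pericytes and vascular muscle cells together are called mural cells, the contractile and supporting cells that wrap vessels.

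After filtering, 1909 cells with 9577642 UMIs (molecules counted once) remained in PLV replicate 1, 516 with 3390010 in PLV replicate 2 and 994 cells with 7770796 UMIs in the mixed library. The median cell held 3372, 4886.5 and 6162 UMIs, respectively. No cell barcode was shared between any of the libraries. Cells were clustered within each library without Olfr genes, and a cluster was called by a class name plus "-like" from marker lists. The muscle-like class held 414, 109 and 316 cells and the pericyte-like class 133, 29 and 57. In the order PLV replicate 1, PLV replicate 2 and mixed, which holds for all series of values given without names, the 12 muscle markers summed to 36212, 38941 and 40852 CPM in the muscle-like cells led by Pln. CPM are UMIs per 1000000 UMIs of the cells named. In fibroblast-like cells the sums were 93.6, 99.7 and 129 CPM. The 11 pericyte markers summed to 13018, 10609 and 6489 CPM in the pericyte-like cells led by Dlk1, which also held 7789, 9020 and 13446 CPM of muscle markers.

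Both genes lie close together on chromosome 7 of the GRCm38 build. Olfr558 (ENSMUSG00000070423) is on the plus strand at chr7:102702215-102712064, with 2 exons and its whole coding sequence of 951 bases in exon 2. Olfr78 (ENSMUSG00000043366) is on the minus strand at chr7:102738511-102759471, with 4 annotated transcripts and a coding sequence of 960 bases in a single exon. Their ends are 26446 bases apart, with 3 genes annotated between them. Since counts of near-identical paralogs can be mixed up, the sequences were compared. The coding sequences shared 63.7% of their bases, against a median of 53.9% between Olfr558 and 1155 other Olfr genes with an annotated coding sequence. Of these, Olfr557 (64.3%) and Olfr555 (64.0%) were the most like Olfr558, with Olfr78 the third, whereas Olfr558 was the most like Olfr78. The longest run of bases shared exactly by a transcript of each was 23 bases. Stretches of 60 coding bases were compared at starts 3 bases apart, within gapless parts of the alignment of both coding sequences. The most alike of these is shown to make the degree of likeness visible. It starts at base 144 of the Olfr558 coding sequence and base 135 of that of Olfr78. It lies at chr7:102709404-102709463 on the plus strand and chr7:102742808-102742867 on the minus strand, and the 49 bases in capitals are identical.
Olfr558: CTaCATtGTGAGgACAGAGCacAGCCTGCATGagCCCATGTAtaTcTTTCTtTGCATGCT
Olfr78: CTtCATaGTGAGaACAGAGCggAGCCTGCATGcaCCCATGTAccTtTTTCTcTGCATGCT

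Because both members had most of their UMIs in mural-like cells, the stretch in front of Olfr558 is shown as well. The RefSeq promoter table (GRCm38.p6) held an entry for Olfr558 and none for Olfr78. The 142 bases upstream of the GENCODE start, chr7:102702073-102702214 on the plus strand, follow with an E-box (CANNTG) in capitals.
Olfr558 upstream: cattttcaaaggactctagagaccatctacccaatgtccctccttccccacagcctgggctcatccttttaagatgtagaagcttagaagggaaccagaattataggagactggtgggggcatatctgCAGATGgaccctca
Motifs were searched on both strands. One E-box was found in the full window of 300 bases, a motif that 72.3% of 32544 promoters of that length hold. The letters TGGGAA, the core bound by the Notch effector Rbpj, occurred once, outside the printed stretch, and are found in 25.4% of promoters. The CArG box, the site of serum response factor, was not found in this window, and 1.64% of promoters hold it.

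Olfr558 was detected in 290, 71 and 200 cells and Olfr78 in 116, 19 and 53 cells. Of the Olfr558 UMIs, 571 of 633, 173 of 178 and 390 of 439 lay in muscle-like or pericyte-like cells, which is 90.2%, 97.2% and 88.8%. These classes held 26.6%, 26.7% and 36.4% of all UMIs. For Olfr78 the same shares were 95.6% of 205 UMIs, 100% of 28 and 97.1% of 70. Both receptors thus had nearly all of their molecules in mural-like cells in each library.

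Among the named classes, the level of Olfr558 was highest in the pericyte-like one. It stood at 354 CPM (exact 95% Poisson interval 297 to 419), 246 (167 to 349) and 310 (256 to 373). Muscle-like cells held 202 CPM (183 to 222), 182 (153 to 215) and 112 (99.2 to 126), giving a PLV mean of 192 ± 14.1 (SD, n = 2) against 300.04 ± 76.2 in pericyte-like cells. The intervals cover counting error only. Pericyte-like and muscle-like intervals overlapped in PLV replicate 2 and did not in the other libraries. In PLV replicate 1, 83 of the 134 pericyte-like UMIs came from a cluster of 94 cells whose muscle markers summed to 22045 CPM and whose pericyte markers summed to 7619. Without that cluster the pericyte-like level there was 286 CPM (213 to 376), which overlaps the muscle-like interval. The blood endothelial-like class followed with 38.9, 7.90 and 28.6 CPM. A single Olfr558 UMI was seen in the lymphatic endothelial-like cells of all libraries, the class that lines lymphatic vessels, and 1 in immune-like cells of PLV replicate 1. Of the cells left unnamed, 39 in the mixed library held 4 UMIs (62.7 CPM), and those of the PLV libraries held 0. The 39 cells were shallow, with a median of 1353 UMIs. Their cluster had markers of T and NK cells and of muscle, with 5 muscle markers 2-fold up.

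Olfr78 had fewer UMIs than Olfr558 in each class where either was found. In muscle-like cells it reached 74.4 CPM (63.3 to 86.8), 34.6 (22.8 to 50.3) and 23.9 (18.2 to 30.9). The PLV replicates did not overlap here, and their mean was 54.5 ± 28.1 (SD, n = 2). In pericyte-like cells the values were 92.4 CPM (64.4 to 129), 7.94 (0.201 to 44.2) and 24.5 (11.2 to 46.5), so that muscle-like and pericyte-like intervals overlapped in every library. In PLV replicate 1 this overlap rested on the same cluster of 94 cells, which held 34 of the 35 UMIs: without it the pericyte-like level was 5.61 CPM (0.142 to 31.3), below the muscle-like interval. Blood endothelial-like cells held 9, 0 and 2 UMIs of Olfr78. Levels of different genes are UMI counts from 3′ ends, with no correction for how well each gene is captured.

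**Figure D1:**
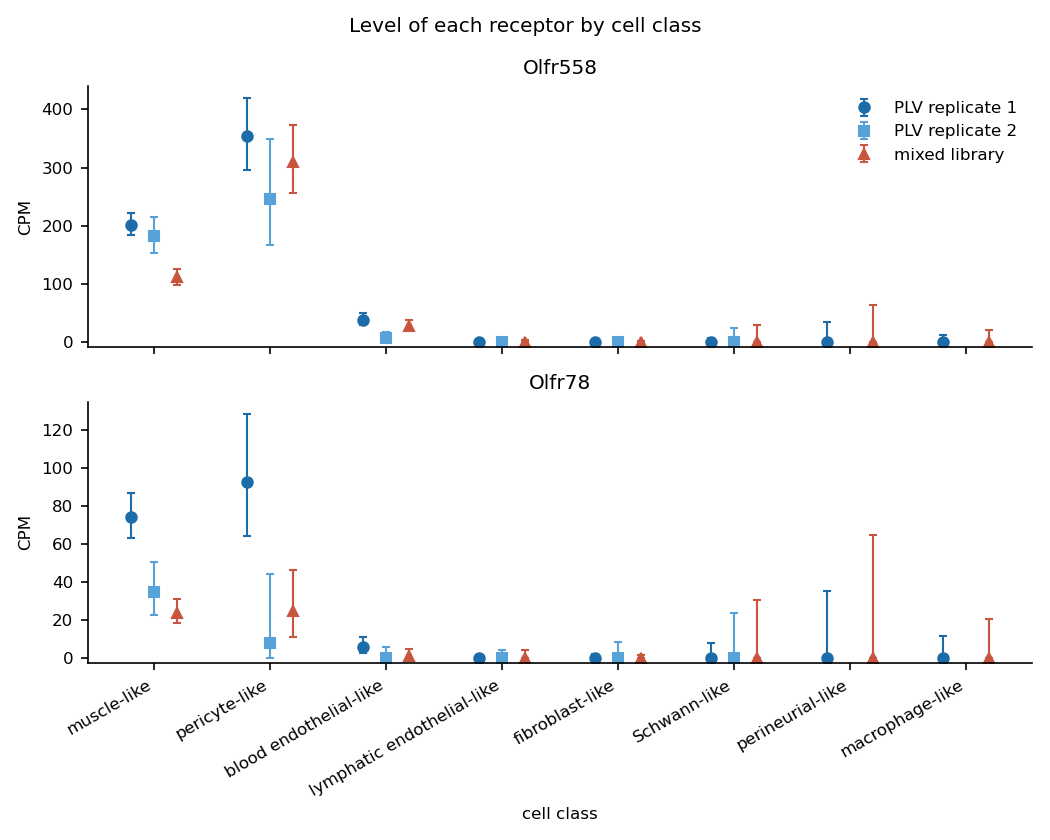
Level of Olfr558 (top) and Olfr78 (bottom) in CPM by cell class, with a point for each library and exact 95% Poisson intervals as bars. Muscle-like and pericyte-like cells stand above all other classes, for Olfr558 at 112 to 354 CPM.

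Cells outside the mural classes gave the background. All cells neither muscle-like nor pericyte-like held 62, 5 and 49 Olfr558 UMIs (8.81, 2.01 and 9.92 CPM). They held 9, 0 and 2 Olfr78 UMIs. Fibroblast-like, perineurial-like and Schwann-like cells, 637, 139 and 324 in number, held 0 UMIs of either gene in all libraries. Taken as 3 cells of the total, 0 of 637 cells allows a share with a UMI of up to 0.471% in PLV replicate 1, and the same floor is 2.16% in PLV replicate 2 and 0.926% in the mixed library. The upper ends of the exact 95% binomial intervals are 0.577%, 2.62% and 1.13%. Against a floor of 3 UMIs per library in fibroblast-like cells, Olfr558 in muscle-like cells was at least 124-fold, 27.4-fold and 78.9-fold higher. Olfr78 was at least 45.8-fold, 5.21-fold and 16.9-fold higher. Near-empty droplets with fewer than 50 UMIs could be examined in the mixed library, whose matrix was deposited unfiltered. They held 16 Olfr558 UMIs (16 CPM, interval 9.14 to 26.0) and 3 Olfr78 UMIs (3.0 CPM), so some free RNA of both was present, while 2113648 UMIs of fibroblast-like cells in that library held none.

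The Olfr558 UMIs outside the mural classes sat mostly in blood endothelial-like cells, with 60, 5 and 45 UMIs. In PLV replicate 1, 30 of the 60 lay in a cluster of 75 cells led by Sema3g (82.8 CPM), with 12 in 1 cell. The clusters of 122 and 99 cells held 27 and 3. Blood endothelial-like cells with an Olfr558 UMI were deeper than those without: their medians were 10263, 16941 and 17055.5 UMIs against 3396, 7707 and 5380.5. The pericyte marker Rgs5 was present in 32 of 33, 4 of 4 and 18 of 18 of them, against 34.2%, 31.1% and 16.7% of the others. Summed over 11 pericyte markers, the level was 5124, 3369 and 3061 CPM in endothelial-like cells with Olfr558 and 1030.1, 589 and 475 in those without. The 10 endothelial markers summed to 7922, 10412 and 7424 against 10750.0, 13378 and 11004. The 12 muscle markers summed to 4038, 973 and 1851 CPM in the cells with Olfr558 and 962, 1030.4 and 1122 in those without. Acta2 was present in 26 of 33, 1 of 4 and 7 of 18, against 17.1%, 11.5% and 15.4% of the others. The part of these pericyte and muscle transcripts and of depth in the endothelial signal was not tested.

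Within the mural classes, the clusters fell into kinds named by their leading genes, chosen after the values were seen. Muscle-like cells led by Pln (phospholamban, a regulator of the calcium pump of the sarcoplasmic reticulum) were found in every library. So were muscle-like cells with Hmcn2 (an extracellular matrix protein) among their leading genes, called Hmcn2-led for short: Hmcn2 itself came first in PLV replicate 2, after Actg2 in PLV replicate 1 and after Ntm and Enpp2 in the mixed library. A kind led by P2rx1, an ATP-gated channel of smooth muscle, was found in the mixed library alone. Pericyte-like cells with Dlk1 among their leading genes, called Dlk1-led, were also found in every library, and 94 further cells of PLV replicate 1 had both pericyte and muscle markers.

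Olfr558 separated the Pln-led from the Hmcn2-led muscle-like cells in all libraries. In Pln-led cells it stood at 278 CPM (251 to 306), 293 (245 to 347) and 240.3 (189 to 301). Hmcn2-led cells held 47.6 CPM (32.9 to 66.5), 24.8 (10.7 to 48.9) and 75.4 (61.3 to 91.7). The P2rx1-led kind lay between them at 122 CPM (99.6 to 149). Dlk1-led pericyte-like cells had 286 CPM (213 to 376), 246 (167 to 349) and 310.3 (256 to 373), overlapping the Pln-led muscle-like cells of the same library each time. The cells with pericyte and muscle markers had 414 CPM (330 to 513). Olfr558 was thus as high in Pln-led muscle-like cells as in Dlk1-led pericyte-like cells, within counting error, and lowest among mural kinds in Hmcn2-led cells.

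Olfr78 had a different balance across the kinds. In Pln-led muscle-like cells it reached 109 CPM (92.6 to 127), 59.0 (38.9 to 85.8) and 70.5 (44.2 to 107). Hmcn2-led cells held 3, 0 and 5 UMIs, or 4.2, 0.0 and 3.77 CPM. The P2rx1-led kind had 38.7 CPM (26.5 to 54.7). Dlk1-led pericyte-like cells had 1, 1 and 9 UMIs, or 5.61 CPM (0.142 to 31.3), 7.94 (0.201 to 44.2) and 24.5 (11.2 to 46.5). The Pln-led and Hmcn2-led intervals lay apart in PLV replicate 1 and the mixed library, and in PLV replicate 2 the exact interval of the Hmcn2-led cells, 0.0 to 11.4 CPM on 0 UMIs, also lay below that of the Pln-led cells. The Pln-led and Dlk1-led intervals lay apart in PLV replicate 1 and overlapped at their edges in PLV replicate 2 and the mixed library. The 94 cells with pericyte and muscle markers had the highest value at 170 CPM (117 to 237). Their own Pln level was 319 CPM, against 0 UMIs of Pln in the Dlk1-led cells of both PLV replicates and 29.9 CPM in those of the mixed library.

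**Figure D2:**
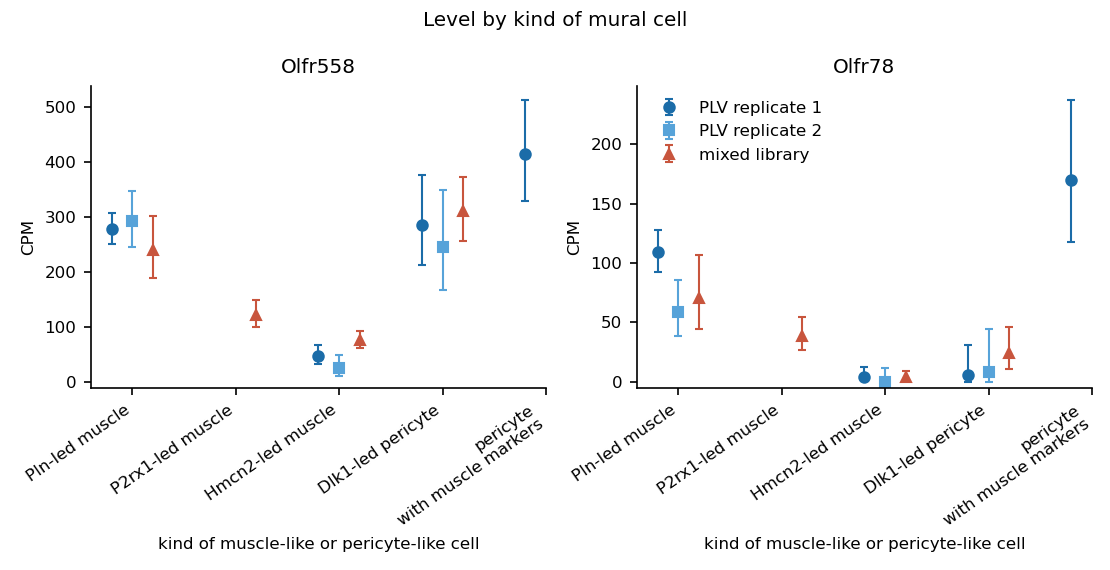
Level of Olfr558 (left) and Olfr78 (right) in CPM by kind of muscle-like or pericyte-like cell, a point for each library, with exact 95% Poisson intervals. Dlk1-led pericyte-like cells overlap Pln-led muscle-like cells for Olfr558 (246 to 310 CPM) and have lower central values for Olfr78 (5.61 to 24.5 CPM).

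The share of Olfr78 in the UMIs of both genes describes this balance. Olfr78 made up 28.2% (exact binomial 95% interval 24.5% to 32.1%) of the UMIs of both genes in Pln-led cells of PLV replicate 1, 16.8% (11.4% to 23.5%) in PLV replicate 2 and 22.7% (14.8% to 32.3%) in the mixed library. In Dlk1-led pericyte-like cells it made up 1.92% (0.0487% to 10.3%), 3.13% (0.0791% to 16.2%) and 7.32% (3.40% to 13.4%). The intervals of these kinds lay apart in PLV replicate 1 and the mixed library and overlapped in PLV replicate 2. In the P2rx1-led kind the share was 24.1% and in the cells with pericyte and muscle markers 29.1%, close to the Pln-led cells. Hmcn2-led muscle-like cells had a low share as well, at 8.11% (1.70% to 21.9%), 0.0% (0.0% to 36.9%) and 4.76% (1.56% to 10.8%), apart from the Pln-led interval in PLV replicate 1 and the mixed library and overlapping that of the Dlk1-led cells in every library.

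Counted by cells, Olfr558 had a UMI in 183 of 277 Pln-led cells of PLV replicate 1 (66.1%, exact binomial interval 60.2% to 71.6%), in 46 of 52 of PLV replicate 2 (88.5%, 76.6% to 95.6%) and in 29 of 43 of the mixed library (67.4%, 51.5% to 80.9%). Olfr78 was detected in 90, 18 and 16 of the same cells, or 32.5%, 34.6% and 37.2%. In Dlk1-led pericyte-like cells, the shares with Olfr558 were 51.3%, 55.2% and 68.4%, and those with Olfr78 were 2.56%, 3.45% and 14.0%. Hmcn2-led cells had Olfr558 in 14.6%, 8.77% and 33.2% and Olfr78 in 2.19%, 0.0% and 1.51%. Most positive cells held few molecules. The highest count in a mural cell was 11 Olfr558 UMIs and 8 Olfr78 UMIs. A blood endothelial-like cell of PLV replicate 1 held 12 Olfr558 UMIs, the most of any cell. Pln-led cells with Olfr558 held 2.20, 2.91 and 2.59 UMIs of it on average.

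Detection moved with the depth of the cell. In Pln-led cells of PLV replicate 1, Olfr558 was found in 5 of 14 cells with at least 500 and under 2000 UMIs, 78 of 130 cells from there to under 5000 and 100 of 133 cells with 5000 or more, or 35.7%, 60.0% and 75.2%. The CPM over the same steps was 319, 291 and 270.3, with no such rise. Other kinds of that library did show a higher level in deeper cells. Dlk1-led pericyte-like cells had 98.6, 254 and 336 CPM over these steps, on 7, 23 and 9 cells, and Hmcn2-led cells 0.0, 40.0 and 54.1, on 10, 76 and 51. In Dlk1-led cells of the other libraries the order was the reverse, at 314, 295 and 204 CPM in PLV replicate 2 and 1040, 396 and 286 in the mixed library, on 6, 13 and 10 and on 3, 18 and 36 cells. The 94 cells with pericyte and muscle markers were shallow, with a median of 1538 UMIs, and their Olfr558 level moved with depth, at 159, 439 and 654 CPM over these steps. Thinned to 1500 UMIs per cell, the share of Pln-led cells with Olfr558 was 32.5%, 38.4% and 29.7%, that of Dlk1-led pericyte-like cells 29.9%, 27.9% and 34.3%, and that of Hmcn2-led cells 5.67%, 2.82% and 10.2%. Thinning left 271 of 277, 52 of 52 and 43 of 43 Pln-led cells, 36 of 39, 24 of 29 and 54 of 57 Dlk1-led cells, and 133 of 137, 49 of 57 and 190 of 199 Hmcn2-led cells. At equal depth, Hmcn2-led cells again had the lowest share with Olfr558 of these kinds in each library. For Olfr78, the thinned shares were 13.3%, 8.55% and 9.79% in Pln-led cells and 0.524%, 2.05% and 3.90% in Dlk1-led cells.

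**Figure D3:**
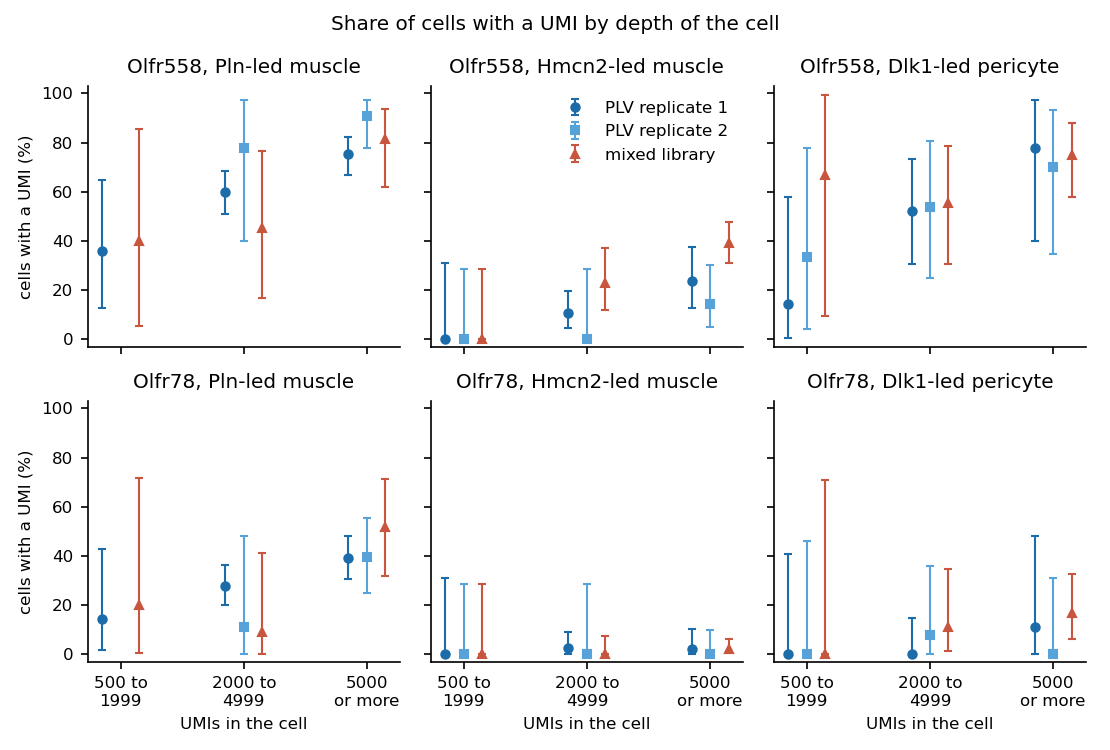
Percent of cells with a UMI of Olfr558 (top) or Olfr78 (bottom) by the number of UMIs in the cell, for 3 kinds and each library, with exact binomial 95% intervals. Pln-led cells of PLV replicate 1 go from 35.7% in the shallowest to 75.2% in the deepest cells, and Hmcn2-led cells stay lowest for Olfr558.

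Some cells held both receptors. In Pln-led cells, 71 of 90, 17 of 18 and 14 of 16 cells with Olfr78 also held Olfr558, which is 78.9%, 94.4% and 87.5%, against 59.9%, 85.3% and 55.6% of the cells without Olfr78. Detection that ignored the other gene would have given 59.5, 15.9 and 10.8 cells with both. The cells with Olfr78 were deeper, with medians of 5644, 9657 and 8598.5 UMIs against 4732, 7498 and 4709, and the part of depth in this overlap was not tested. Of the Dlk1-led cells with Olfr78, 1 of 1, 1 of 1 and 8 of 8 held Olfr558.

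The members accounted for 1553 of the 2672 UMIs of all Olfr genes, or 58.1%. Of 1135 Olfr genes, 145 had a UMI in a kept cell and 74 of these had only 1. Olfr558 ranked first with 1250 UMIs, followed by Olfr1033 with 316, Olfr78 with 303 and Olfr920 with 215. After Olfr558, which had the most in each library, the order differed by library: Olfr78 had 205, 28 and 70 UMIs, Olfr1033 had 67, 34 and 215, and Olfr920 had 136, 57 and 22. Olfr655 had 54 UMIs in 16 cells, Olfr729 had 37, Olfr560 and Olfr1369-ps1 each had 32, Olfr905 had 31 and Olfr1124 had 28. The other genes with at least 10 were Olfr56 with 19, Olfr46 and Olfr77 with 14, Olfr482 and Olfr889 with 13, Olfr57 with 12 and Olfr373 with 10. Of the 15 genes beside the members, Olfr560, Olfr1033 and Olfr482 had over 50% of their UMIs in mural-like cells, at 96.9%, 82.6% and 61.5%.

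Olfr1033 showed the opposite order among muscle-like cells. It stood at 54.5, 68.3 and 106 CPM in Hmcn2-led cells and at 2.07, 2.18 and 0.0 CPM in Pln-led cells, on 3, 1 and 0 UMIs. In Dlk1-led pericyte-like cells it was 22.4, 23.8 and 35.4 CPM. Olfr920 had no one order: it was found at 2.80, 12.4 and 0.754 CPM in Hmcn2-led cells and at 15.9, 2.18 and 3.20 CPM in Pln-led cells. In fibroblast-like cells it was at 10.8, 28.8 and 5.20 CPM, and 19.1% of its UMIs were in mural-like cells.

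**Figure D4:**
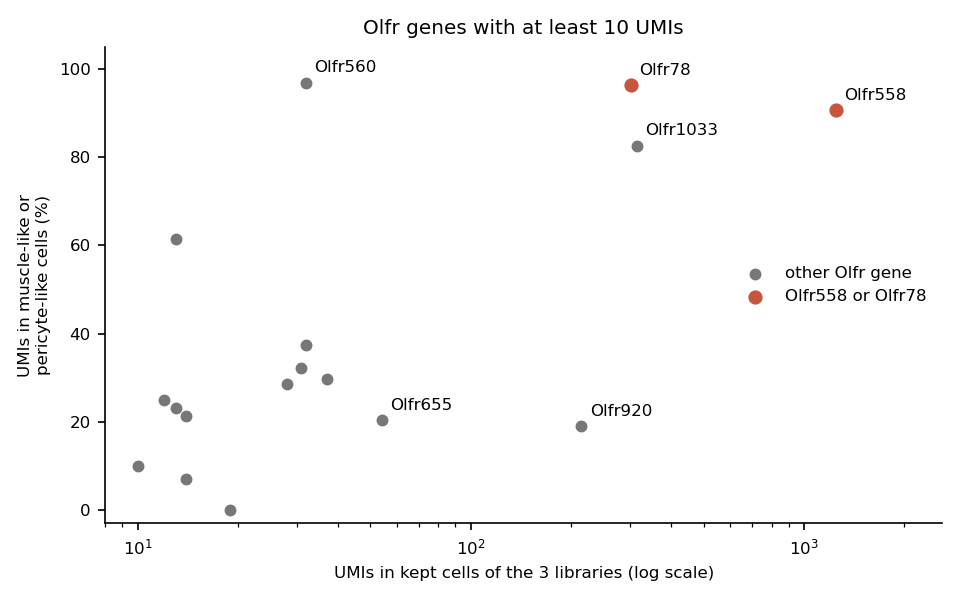
Each of the 17 Olfr genes with at least 10 UMIs, by its UMIs in all kept cells (x, log scale) and the percent of these in muscle-like or pericyte-like cells (y). Olfr558, Olfr78, Olfr1033 and Olfr560 stand at 82.6% or above, and every other gene at 61.5% or below.

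Olfr560 and Olfr78 cannot be fully told apart. Olfr560 lies inside the Olfr78 gene on the same strand, at chr7:102751818-102759366, and 926 of the 6033 exon bases of Olfr78 are also exon bases of Olfr560. How reads on the shared bases were counted is not given in the sources used here. Of 25 mural-like cells with an Olfr560 UMI, 12 also held Olfr78 (48.0%), against 169 of 1033 without (16.4%), at median depths of 5600.0 and 5222 UMIs. The coding exon of Olfr78 is not among the shared bases. Olfr558 overlaps only the pseudogene Gm45688 of 101 bases on the opposite strand.

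The other receptor genes analysed near the members had at most 7 UMIs, apart from Olfr560. Olfr557, 1508 bases before Olfr558, had 3 UMIs in all kept cells, and Olfr33, 87 bases past its end, also had 3. Olfr556, Olfr559 and Olfr564 had 0 and Olfr561 had 7, of which 6 were in muscle-like cells. Trim68, a tripartite-motif gene among these receptors, had 145 UMIs, with 56 in muscle-like and 12 in pericyte-like cells. Gm45527, Gm45687, Gm24210, Olfr562-ps1, Olfr563-ps1 and Olfr565-ps1, also among the 5 nearest on a side, were not analysed here.

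Genes with the most similar pattern were found by Pearson correlation over 26 sums of a class in a library, among 12471 genes. The sums share libraries and depth, and the values are a description with no p. For Olfr558 these were Myl1 (0.976), Cox4i2 (0.965), Stac (0.965), Rgs4 (0.962), Gm13861 (0.959), Des (0.958), Pakap (0.948) and Ddit4l (0.946). Myl1 encodes a myosin light chain, Cox4i2 a hypoxia-linked subunit of cytochrome oxidase, Rgs4 a regulator of G protein signalling and Des the muscle intermediate filament desmin. Rgs4 was at 651, 609 and 285 CPM in Pln-led cells and 505, 373 and 256 in Dlk1-led pericyte-like cells, against 9.79, 15.5 and 3.77 in Hmcn2-led cells. Hmcn2-led cells were lowest of these kinds in each library for Rgs4, Myl1, Cox4i2 and Gm13861, as for Olfr558, and for the other 4 genes they were not. Stac was at 74.5 and 33.2 CPM in Hmcn2-led cells of PLV replicate 2 and the mixed library against 65.5 and 22.4 in Pln-led cells, and Des at 417 against 316 in PLV replicate 1.

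For Olfr78 the most similar genes were Kcnt1 (0.963), Hrc (0.956), Stum (0.953), Sgca (0.943), Ppp1r3d (0.942), Hey2 (0.942), Cap2 (0.942) and Map3k7cl (0.941). Kcnt1 encodes a sodium-activated potassium channel, Hrc a calcium-binding protein of the sarcoplasmic reticulum, Sgca a sarcoglycan and Hey2 a Notch target. Hey2 stood at 228, 234 and 96.1 CPM in Pln-led cells, 82.3 in the P2rx1-led kind and 0.0, 7.94 and 29.9 in Dlk1-led pericyte-like cells. The 2 lists of 8 shared no gene, which with 12471 genes compared is not read as a difference between the receptors. Olfr78 ranked 70 for Olfr558 and Olfr558 ranked 53 for Olfr78, at a correlation of 0.885. The pericyte markers Rgs5 and Kcnj8 stood at 0.872 and 0.763 with Olfr558 and at 0.705 and 0.582 with Olfr78, and Pln stood at 0.771 and 0.936. The muscle markers Myh11 (0.935 and 0.881), Acta2 (0.916 and 0.885) and Sorbs2 (0.804 and 0.783) did not share the direction of Pln: each was closer to Olfr558.

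Whether the receptors differed between the mixed library and the PLV libraries was tested on UMI sums per library. Olfr78 in muscle-like cells was lower in the mixed library than in the PLV libraries (log2 change -1.07, SE 0.284; edgeR quasi-likelihood test, Benjamini-Hochberg adjusted p = 0.00229), at 23.9 CPM against 74.4 and 34.6. Over all 10732 genes tested, edgeR called 8.2% lower and 9.01% higher, 17.2% in all, while DESeq2 called 113 genes lower and 96 higher. Olfr558 did not pass the test (log2 change -0.55, SE 0.251, edgeR adjusted p = 0.114), at 112 CPM against 202 and 182. The Olfr78 call was not met with DESeq2 (log2 change -0.98, adjusted p = 0.758) or with finer clustering at Leiden resolution 2 (-0.51, edgeR adjusted p = 0.239). On simulated counts DESeq2 recovered 4.12% of 97 genes changed 2-fold in this comparison, so its miss alone does not decide against the call. The adjusted p over the alternatives of the Olfr78 call ranged from 0.000856 to 0.758. Without PLV replicate 1 the plain ratio of the mixed library to PLV replicate 2 was -0.53 on the log2 scale, with a counting interval from -1.21 to 0.18, and without PLV replicate 2 it was -1.64 (-2.09 to -1.20). With 1 mixed library, its spread is assumed to be that of the PLV libraries.

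The make-up of the muscle-like class moved with that difference. Pln-led cells were 66.9%, 47.7% and 13.6% of muscle-like cells, and Hmcn2-led cells 33.1%, 52.3% and 63.0%. The P2rx1-led kind made up 23.4% in the mixed library. By UMIs of the class, which weight the CPM, Pln-led cells held 67.0%, 58.7% and 12.7%. Hmcn2-led cells held 33.0%, 41.3% and 53.8% of these UMIs, and the P2rx1-led kind 33.5% in the mixed library. Within Pln-led cells, the mixed library's 70.5 CPM of Olfr78 lay between the 109 and 59.0 CPM of the PLV replicates, and its 240.3 CPM of Olfr558 had an interval overlapping both. Olfr558 in Hmcn2-led cells was higher in the mixed library (75.4 CPM) than in either PLV replicate (47.6 and 24.8), with an interval that overlapped the first and not the second. The part of the make-up in the difference of Olfr78 was not tested. Digestion, pool and run cannot be told apart between the mixed and PLV libraries. The vessels of the mixed library were not separated here, since its hashtag counts were not used.

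In pericyte-like cells, neither receptor passed the test between the mixed and PLV libraries. Olfr558 had a log2 change of 0.21 (SE 0.383, edgeR adjusted p = 0.881) and Olfr78 one of -1.16 (SE 0.61, edgeR adjusted p = 0.482), and 0.595% of 6718 genes were called lower and 0.655% higher, 1.25% in all. The direction for Olfr78 was not stable: it was 0.11 with at most 10% mitochondrial UMIs, and the plain ratio was 1.63 (counting interval -1.23 to 7.08) without PLV replicate 1 and -1.92 (-3.16 to -0.83) without PLV replicate 2. The cells with pericyte and muscle markers, found in PLV replicate 1, hold 34 of the 35 Olfr78 UMIs of that library's class. Left out, Olfr78 had too few UMIs to be tested and Olfr558 changed by 0.42 (edgeR adjusted p = 0.614).

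Genes with which odorant receptors work in the nose were then examined. Of 18 odorant receptor signalling genes, 15 had a UMI. Cnga4, a subunit of the olfactory channel, and the receptor-transporting proteins Rtp1 and Rtp2 had none. Gnal, the olfactory alpha subunit, had 31 UMIs in all, with 3, 2 and 1 in muscle-like cells. Cnga2, the other main channel subunit, had 1 UMI in all, and Gng13, the olfactory gamma subunit, had 34 with 0 in mural-like cells. Gnas, the widely used stimulatory alpha subunit, was at 1314, 1261 and 1116 CPM in muscle-like cells and 1389, 1405 and 1225 in pericyte-like cells. The beta subunit Gnb1 was at 265, 205 and 171 CPM in muscle-like cells, and Pde4a, a cAMP phosphodiesterase, was at 34.3, 39.7 and 19.1 CPM in pericyte-like cells. Adcy3, the olfactory cyclase, reached 8.78, 8.97 and 3.65 CPM in muscle-like cells.

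For these genes, sums over muscle-like cells were set against sums over fibroblast-like cells, with the library as a block. Muscle-like sums were higher for 15.6% and lower for 16.6% of 10346 genes tested, 32.2% in all (edgeR adjusted p under 0.05). Of the 18 signalling genes, 7 could be tested, of which 1 was higher, 1 lower and 5 did not pass, with a median log2 difference of -0.02 against 0.03 over all genes. Reep1, a membrane-shaping protein that aids receptor transport, was the higher one (log2 difference 6.81, SE 0.405, edgeR adjusted p = 8.21e-05), at 60.5, 88.4 and 66.9 CPM in muscle-like cells. Fibroblast-like cells held 1, 0 and 1 Reep1 UMIs, so the size of its difference rests on counts near the floor. Adcy3 was the lower one (-1.33, SE 0.344, edgeR adjusted p = 0.0247), and the call was not met in 4 alternatives. Without PLV replicate 1 the log2 difference was -1.51 (edgeR adjusted p = 0.0844) and without PLV replicate 2 it was -1.07 (0.124). It was -1.38 with DESeq2 (adjusted p = 0.0974) and -1.42 with no library block (edgeR adjusted p = 0.0983).

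Of 9 other adenylyl cyclases, all had a UMI and 5 were tested, with 4 higher and 1 lower in muscle-like cells, beside 15.6% and 16.6% of all genes. The median log2 difference was 2.65, against 0.03 over all genes. Adcy5 was higher by 5.83 (SE 0.423, edgeR adjusted p = 0.000144), at 325, 287 and 200 CPM. Adcy1 was higher by 3.86, Adcy6 by 2.65 and Adcy9 by 1.51, the last not called without either PLV replicate (edgeR adjusted p = 0.0798 and 0.0584). Fibroblast-like cells held 15, 0 and 5 UMIs of Adcy5 and 3, 0 and 5 of Adcy1, so the sizes of these differences rest on low counts. Adcy7 was lower (-2.90, SE 0.511, edgeR adjusted p = 0.00513). In pericyte-like cells, Adcy6 had the most UMIs of the list, at 280 CPM, 397 and 89.8, where Adcy9 stood at 74.0, 87.3 and 21.8 and Adcy5 at 60.7, 31.8 and 19.1. Adcy5, Adcy6 and Adcy9 had the most UMIs of the list in muscle-like cells as well, with Adcy6 at 175, 197 and 58.8 CPM and Adcy9 at 80.4, 74.3 and 38.5.

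**Figure D5:**
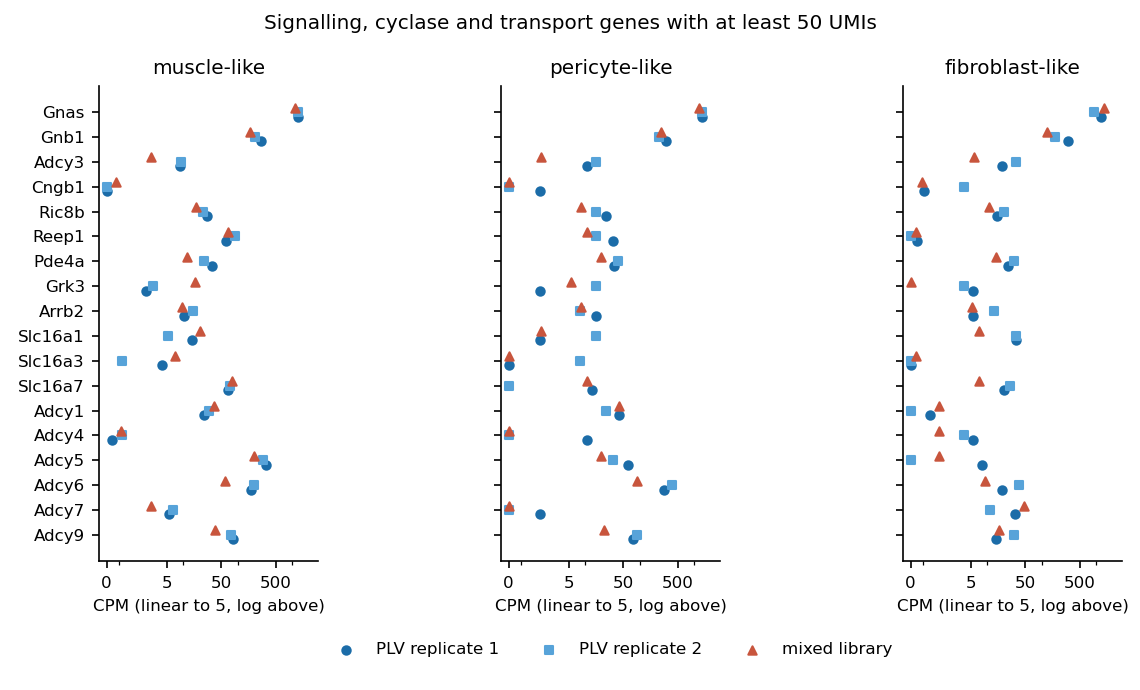
CPM of the 18 signalling, transport and cyclase genes with at least 50 UMIs, in muscle-like, pericyte-like and fibroblast-like cells, a point for each library, on an axis that is linear up to 5 and logarithmic above. Reep1 and Adcy5 are high in muscle-like cells (Reep1 at 60.5 to 88.4 CPM, Adcy5 at 200 to 325) and at most 8.11 CPM in fibroblast-like cells, while Gnas is high in all.

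Other receptors for small acids were scarce. Of 7 such genes, 6 had a UMI, none reached 50 UMIs and none passed the filter for the test. Hcar1, the lactate receptor, had the most UMIs in pericyte-like cells, with 1, 1 and 9 UMIs, followed by Ffar2 with 2 UMIs in the mixed library. Ffar3, a receptor for short-chain fatty acids, had 0 UMIs, and Ffar1, Ffar4, Hcar2 and Gpr84 had none in mural-like cells. Of 6 carboxylate transporters, 2 were tested. Slc16a7, a monocarboxylate carrier, was higher in muscle-like than in fibroblast-like cells (log2 difference 2.04, SE 0.352, edgeR adjusted p = 0.00465), at 65.6, 73.1 and 77.5 CPM. Slc16a1 did not pass (-0.68, edgeR adjusted p = 0.453), at 14.3, 5.13 and 19.9 CPM, and Slc16a3 was at 4.62, 1.28 and 6.90 CPM.

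Between the mixed and PLV libraries, 4 of 16 tested genes of these lists were called in muscle-like cells, beside 17.2% of all genes, and the count is not read as a result about the lists. Grk3, a receptor kinase, was higher in the mixed library (log2 change 2.46, edgeR adjusted p = 0.000299), at 16.2 CPM against 3.23 and 3.85. Adcy6 was lower (-1.42, edgeR adjusted p = 2.55e-06), at 58.8 CPM against 175 and 197. Adcy9 (-0.78, edgeR adjusted p = 0.0235) and Pde4a (-1.14, edgeR adjusted p = 0.0111) were lower too, and neither was called with DESeq2 (adjusted p = 0.751 and 0.828) or at Leiden resolution 2 (edgeR adjusted p = 0.0516 and 0.0602). In pericyte-like cells Adcy6 was the only gene of the lists called, and it was lower as well (-1.68, SE 0.441, edgeR adjusted p = 0.0191; DESeq2 adjusted p = 1.00). The lists had 8 genes tested there, and 1.25% of all genes were called. Of simulated 2-fold changes, DESeq2 recovered 4.12% in muscle-like and 0% in pericyte-like sums, so its misses do not decide here.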

How the data were processed

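Per the labels' protocols, libraries were made with a 10X Genomics 3′ kit. The deposited values are raw UMI counts per gene and barcode, made with Cell Ranger on GRCm38 per the submitters' processing notes; the annotation is not given in the sources used here. The deposited PLV matrices held 2649 and 730 barcodes and the unfiltered mixed matrix 896360. Hashtag counts of the mixed library were not used.

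Barcodes with at least 500 UMIs, 300 genes, at most 15% mitochondrial and 20% haemoglobin UMIs were kept, and 10, 3 and 3 doublets predicted by scrublet in scanpy 1.11.5 were removed. Each library was clustered alone (2000 variable genes, 50 components, Leiden resolution 1, leidenalg 0.10.2), without Olfr, list, sex-linked, haemoglobin and tdTomato genes. A cluster with at least 5 markers of 2 unrelated classes was clustered once more, a step added after clusters were seen. A class name needed at least 3 markers 2-fold up. Erythroid markers did not count towards names.

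UMI counts summed by library and class were tested with edgeR 4.0.16 (TMM, filterByExpr, quasi-likelihood, Benjamini-Hochberg at 0.05), with DESeq2 1.42.0 as an alternative. Sequence identity came from global alignment in Biopython 1.88. On simulated muscle-like mixed against PLV sums of 10614 genes, edgeR recovered 81.4% of 97 changed 4-fold and 28.9% of 97 changed 2-fold. For pericyte-like sums of 6621 genes it recovered 49.4% of 89 and 6.59% of 91. DESeq2 recovered 42.3% and 4.12% of the same genes for muscle-like sums and 8.99% and 0% for pericyte-like sums. P-values of mixed against PLV rest on the spread between the PLV libraries, each from a pool of mice. Those of muscle-like against fibroblast-like cells, with the library block, rest on how that difference varies between libraries. Thinned shares are the expected share of cells with a UMI when 1500 are drawn per cell.

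The members, lists and tests were chosen with earlier results of these data known. Named are the members, the 8 genes most correlated with each (log2 of CPM plus 10, sums of at least 20000 UMIs, genes with at least 50 UMIs), other Olfr genes with at least 10 UMIs, the 5 nearest genes on each side, and list genes that passed the test or were the 3 highest. Other genes that are named, including Olfr555, Gnal, Cnga2, Gng13 and the genes at 0, were chosen after their values were seen.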

Additional observations from a re-analysis of the deposited data

How the results depend on the processing

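Of 112 values of the receptors in muscle-like and pericyte-like cells, 99 moved by less than the error of the main value. That error is 1 SD for a PLV mean and the exact 95% counting interval for the mixed library. Some of the 99 could not move. Leaving out the second clustering changed neither the muscle-like class of any library nor the pericyte-like class of the mixed library. Leaving out the pericyte-like cluster with muscle markers did not touch the mixed library. The SD was wider than the mean for Olfr78 in pericyte-like cells of the PLV libraries, 50.2 ± 59.8 CPM (SD, n = 2), so large moves are among the 99: it was 2.65 CPM when 1000 UMIs were required, 19.8 with the mitochondrial limit at 10%, 85.9 at Leiden resolution 2, and 6.78 with no second clustering or without the pericyte-like cluster with muscle markers. Requiring 1000 UMIs per barcode, the PLV mean of Olfr558 in muscle-like cells was 206 CPM and 50.3% of cells, and Olfr78 was in 1.14% of pericyte-like cells. At Leiden resolution 2 these were 177 CPM, 45.3% and 16.7%. Thinning to 1500 UMIs lowered the shares with Olfr558 to 22.4% (PLV mean) and 14.7% (mixed) in muscle-like cells and 31.7% and 34.3% in pericyte-like cells, and those with Olfr78 to 6.78% and 2.89% in muscle-like cells and 3.90% (mixed) in pericyte-like cells.

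The Olfr78 call between mixed and PLV muscle-like cells was lost at Leiden resolution 2 (-0.51) and with DESeq2 (-0.98); the cause was not tested. Leaving out a PLV library gave -1.64 to -0.53 for Olfr78 and -0.85 to -0.70 for Olfr558. In pericyte-like cells it gave -1.92 to 1.63 for Olfr78 and -0.19 to 0.33 for Olfr558, and at most 10% mitochondrial UMIs turned Olfr78 to 0.11 (edgeR adjusted p = 0.978). Adcy6 in pericyte-like cells was not called at Leiden resolution 2 (edgeR adjusted p = 0.19) or with no filter on low counts (0.157).

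Genes called between mixed and PLV muscle-like cells, 967 higher and 880 lower, fell to 96 and 113 with DESeq2. For pericyte-like cells, 44 were higher and 40 lower. The higher count was 110 when barcodes needed 1000 UMIs, 81 with the mitochondrial limit at 10%, and 111 with no second clustering or without the pericyte-like cluster with muscle markers (both chosen after seeing the data). It was 23 (20 lower) at Leiden resolution 2 and 27 (20 lower) with no filter on low counts. DESeq2 called 0 higher and 2 lower there, with 102 at an unadjusted p under 0.05, against 717 by edgeR. For muscle-like against fibroblast-like cells, 1617 were higher and 1715 lower; leaving out a library gave 984 (without PLV replicate 1) to 1951 higher and 1088 (without PLV replicate 2) to 2182 lower. Without PLV replicate 2, 1056 were higher. With no library block, 1263 were higher and 1337 lower.

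The comparison of muscle-like with fibroblast-like cells was paired by library, through the library block. For mixed against PLV libraries, no paired analysis was possible because the mixed library shares no replicate number with the PLV libraries in the labels. The few molecules of Olfr78 in pericyte-like cells, 1 UMI in PLV replicate 2, limit what can be said of it there.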
